A study of Mus musculus with 6 samples.

Results

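The 10 genes described here encode enzymes and a carrier of eicosanoid and platelet-activating factor metabolism, and were picked by symbol from the deposited expression table: Alox5, Alox5ap, Lta4h, Ltc4s, Ptgs1, Ptgs2, Ptges, Hpgds, Pla2g4a and Pla2g7. All 10 were present among the 30037 named genes of the table, and all 10 stood at or above the test minimum of 1 in every library, so that none entered the test through 1 genotype alone. The libraries hold poly(A) RNA of L-GMP cells, a leukaemic fraction that resembles granulocyte-monocyte progenitors, sorted out of the marrow of acute myeloid leukaemia (AML) mice. Prmt6-/- leukaemia, which lacks the arginine methyltransferase Prmt6, gave 3 libraries, and wild-type (WT) leukaemia gave 3; the mice of both groups were 8 to 10 weeks old. The transgene or oncogene that drove the leukaemia, and whether a library came from 1 animal or a pool, are not given in the sources used here.

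Leukotrienes and prostaglandins are made from arachidonate, which phospholipases release from membranes. In the lipoxygenase branch, 5-lipoxygenase with its activating protein makes leukotriene A4, which is turned into leukotriene B4, a strong attractant of neutrophils, or into the cysteinyl leukotrienes. In the cyclooxygenase branch, prostaglandin H2 is formed and then passed to separate synthases for prostaglandin E2, prostaglandin D2, prostacyclin and thromboxane. Neutrophils, monocytes, mast cells and platelets are known sources of one or more of these lipids.

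Values are on the log2 scale on which the authors deposited them, normalized between libraries. They are not scaled by transcript length, so differences are read between genotypes within a gene. Level bins, marker sums and ranks by mean set genes side by side on these values, and do not measure relative transcript numbers. On that scale the library values of a gene of low level lie close to each other, so that its differences are understated. The log2 fold change of the authors' deposited table is therefore given beside each gene. Read depth is unknown, because the values are not counts, and no counting interval is given. Differences are Prmt6-/- minus WT, tested with limma over 15454 genes, and a gene passed where its Benjamini-Hochberg adjusted p was under 0.05.

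Prmt6 itself, the targeted gene, averaged 5.45 ± 0.03 in Prmt6-/- cells and 7.61 ± 0.20 in WT cells (SD, n = 3 each). The authors' deposited table gives it a log2 fold change of -7.66. Pairs of libraries correlated across tested genes by 0.9933 to 0.9961 where the genotypes differed and by 0.9987 to 0.9992 where they did not. The labelled fraction was checked against 8 progenitor markers, all of them tested: Kit averaged 9.85 in Prmt6-/- and 10.14 in WT cells, Cd34 10.47 in Prmt6-/- and 10.44 in WT cells, and Fcgr3 13.30 in Prmt6-/- and 13.28 in WT cells. Ly6a, which such a gate usually leaves out, averaged 2.61 in Prmt6-/- and 2.62 in WT cells. Of the 8 markers the granule proteases Elane and Ctsg rose by 1.45 and 0.51 on the log2 scale, and Fcgr2b, an Fc receptor gene read by the same gate as Fcgr3, fell by 0.88. Mpo, the myeloperoxidase gene, differed by -1.11 and did not pass (limma adjusted p = 0.139). It varied widely, with 13.34, 14.37 and 15.72 in Prmt6-/- libraries and 15.27, 15.19 and 16.29 in WT libraries. The sum of the 8 markers on the linear scale, led by Elane, Ctsg and Mpo, was 349199 to 388039 in Prmt6-/- libraries and 188883 to 256944 in WT libraries. Prmt6-/- library 3 stood apart from knockout libraries 1 and 2, with a neutrophil marker sum of 3326 against 1703 and 1809 and a T and NK cell marker sum of 1478 against 553 and 572. WT library 3 stood apart from WT libraries 1 and 2 as well, with a T and NK cell marker sum of 2721 against 1679 and 1454 and a progenitor marker sum of 256944 against 188883 and 191065. Nkg7 made up most of each T and NK cell sum. Cd3d stood at 5.52 in Prmt6-/- library 3 against 5.71 and 5.51, and at 5.16 in WT library 3 against 5.14 and 5.13. Cd3e averaged -1.97 in both genotypes.

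Of the 10 genes, 4 fell and 1 rose in Prmt6-/- cells. The 3 genes that together make leukotriene B4, namely Alox5, Alox5ap and Lta4h, all fell, as did Ptges, the inducible prostaglandin E synthase. The 1 gene that rose was Ptgs1, the constitutive cyclooxygenase. Ltc4s, Ptgs2, Hpgds, Pla2g4a and Pla2g7 did not pass the test. A share of 50% passed, against 33.0% of all 15454 tested genes (15.0% higher and 18.0% lower). Genes of higher level passed more often, so each gene is also set beside its own level bin, 1 of 8 bins of tested genes by mean value. The share of genes that passed was 37.3% in the bin of Alox5, 44.3% in that of Ptges, 46.5% in that of Alox5ap and Ptgs1 and 49.1% in that of Lta4h. Among the genes that did not pass it was 3.88% in the bin of Ltc4s, 10.7% in that of Pla2g7, 30.0% in that of Ptgs2 and Hpgds and 42.2% in that of Pla2g4a. Whether 5 of 10 exceeds these shares was not tested. The groups did not overlap for 6 of the 10, against 47.4% of all tested genes. Of these 6 the knockout lay below in 4 (24.4% of all tested genes) and above in 2 (23.0%). The median difference of the 10 was -0.06, against 0.01 over all tested genes. In the authors' deposited table the same 5 genes had an adjusted p under 0.05, against 31.0% of the tested genes, and its fold changes had the sign found here for all 10. The exact two-sided permutation test of a single gene cannot go below 0.1 with 3 against 3 libraries, and gave 0.1 for each of the 6 genes whose groups did not overlap.

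**Figure D1:**
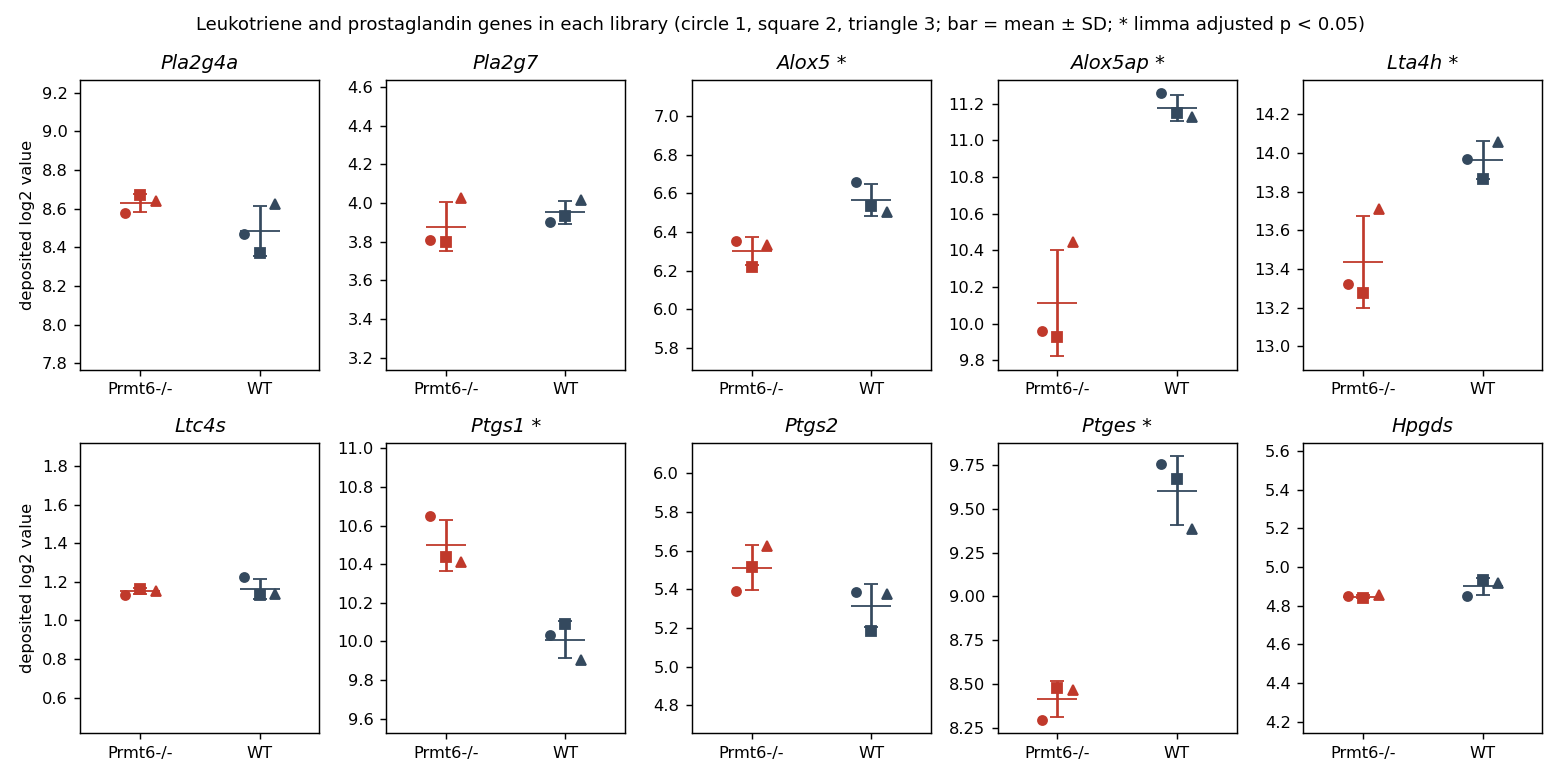
Deposited log2 values (y axis, a separate scale for each gene of at least 1.5 log2 units) of the 10 genes in Prmt6-/- libraries on the left of each panel (red) and WT libraries on the right (dark blue), with mean ± SD as bars. Alox5, Alox5ap, Lta4h and Ptges lay lower in all Prmt6-/- libraries and Ptgs1 and Ptgs2 higher, and the other 4 panels overlap.

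The promoters of genes that passed are shown so that those that fell can be set beside the 1 that rose. They come from RefSeq on GRCm38.p6, where 9 of the 10 genes matched, all but Alox5ap. The 250 bases before the start site are given 5′ to 3′ on the gene's strand, in lower case, with matches of the searched motifs in capitals. They lie at chr2:30903298-30903547 (minus strand) for Ptges, chr6:116461179-116461428 (minus strand) for Alox5, chr10:93453146-93453395 (plus strand) for Lta4h and chr2:36230176-36230425 (plus strand) for Ptgs1. The Ptges window lies inside the longer GENCODE gene model but in none of its exons.
Ptges: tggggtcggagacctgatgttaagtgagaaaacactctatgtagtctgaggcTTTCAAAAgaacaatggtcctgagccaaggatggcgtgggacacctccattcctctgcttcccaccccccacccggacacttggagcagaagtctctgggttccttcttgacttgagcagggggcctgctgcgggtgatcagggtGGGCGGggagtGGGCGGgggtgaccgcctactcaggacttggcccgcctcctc
Alox5: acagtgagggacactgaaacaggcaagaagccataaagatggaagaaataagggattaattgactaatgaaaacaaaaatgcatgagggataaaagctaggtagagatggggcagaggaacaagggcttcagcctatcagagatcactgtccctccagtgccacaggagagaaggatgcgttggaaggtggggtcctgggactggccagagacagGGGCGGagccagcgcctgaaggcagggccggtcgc
Lta4h: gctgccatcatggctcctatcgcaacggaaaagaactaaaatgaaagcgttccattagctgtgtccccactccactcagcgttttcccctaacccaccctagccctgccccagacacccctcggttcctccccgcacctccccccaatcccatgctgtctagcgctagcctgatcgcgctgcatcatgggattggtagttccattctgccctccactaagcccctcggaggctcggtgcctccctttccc
Ptgs1: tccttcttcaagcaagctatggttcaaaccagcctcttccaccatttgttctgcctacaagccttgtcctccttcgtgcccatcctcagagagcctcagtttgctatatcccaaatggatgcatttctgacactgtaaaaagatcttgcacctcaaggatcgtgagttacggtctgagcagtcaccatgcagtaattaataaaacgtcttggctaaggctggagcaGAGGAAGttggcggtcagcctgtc

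Motifs were searched on both strands in windows from 250 bases before to 50 after the start site, and each share is of 32817 such windows. Of the genes that fell, Ptges held the Sp1 motif GGGCGG at positions -53 and -42 from the start site and the C/EBP motif TTNNGNAA at -198, and Alox5 held GGGCGG at -35. The Lta4h window held none of the 10 motifs. Ptgs1, which rose, held the PU.1/ETS motif GAGGAAG at -24. GGGCGG stands in 35.6% of all windows, TTNNGNAA in 40.7% and GAGGAAG in 13.6%. The window of Ptgs2 held the widest set, with GGGCGG, TTNNGNAA, the short CRE motif TGACGT (7.51% of windows), which is part of the full CRE motif, and the E-box CACGTG (7.15%), which overlaps TGACGT in this window. The NF-kB motif, in 8.46% of all windows, the AP-1 motif TGANTCA, in 7.81%, the CRE motif TGACGTCA, in 1.79%, and the ISRE core motif, in 3.43%, matched none of the windows of the 9 genes, and the TATA box TATAAA, in 13.6%, matched only at a second start site of Pla2g4a, on the other strand. A match is a description of letters and not a binding site.

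Alox5, which encodes the 5-lipoxygenase that starts leukotriene synthesis (GRCm38, chromosome 6, 116410077 to 116461178, protein-coding), stood at 6.35, 6.22 and 6.33 in Prmt6-/- libraries, against 6.66, 6.54 and 6.50 in WT libraries. Every knockout value was below every WT value, and the gap between the groups was narrow. The difference was -0.26 (SE 0.07, limma adjusted p = 0.0183), and 83.3% of the WT level remained on the deposited scale. The authors' deposited table gives a larger log2 fold change of -0.70 (adjusted p = 0.0275). This call rested on single libraries, for it ended without Prmt6-/- library 2 (difference -0.22, limma adjusted p = 0.0749) or without WT library 1 (difference -0.22, limma adjusted p = 0.0625), and in a linear model for each gene alone (adjusted p = 0.0545).

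Alox5ap encodes the 5-lipoxygenase activating protein, a membrane protein that presents arachidonate to 5-lipoxygenase (chromosome 5, 149264767 to 149288153). Its values were 9.96, 9.93 and 10.45 in Prmt6-/- cells, against 11.26, 11.15 and 11.13 in WT cells. Knockout library 3 lay highest of its group but well below the WT range, and 47.7% of the WT level remained. The difference was -1.07 (SE 0.13, limma adjusted p = 0.000286), with -1.23 when Prmt6-/- library 3 was left out. That library is the knockout library with the higher neutrophil marker sum and the higher T and NK cell marker sum, the latter mostly Nkg7. The part of these in this gene and in Lta4h was not tested. Of all tested genes 1.95% passed and differed by at least 2-fold on this scale, Alox5ap and Ptges among them. That share covers genes of every level, and those of low level are compressed. Alox5ap fell short of 2-fold after quantile normalization (-0.99) and without Prmt6-/- library 1 (-0.99) or 2 (-0.97). The authors' deposited table lists Alox5ap at -1.21 (adjusted p = 4.63e-16).

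Lta4h, the hydrolase that turns leukotriene A4 into leukotriene B4 and also acts as an aminopeptidase (chromosome 10, 93453411 to 93484875), had 13.32, 13.28 and 13.71 in Prmt6-/- libraries, against 13.97, 13.86 and 14.06 in WT libraries. Knockout library 3 again lay nearest to the WT libraries, without reaching them. The difference of -0.53 (SE 0.11, limma adjusted p = 0.00495) left 69.3% of the WT level, and was -0.67 without Prmt6-/- library 3. A linear model for each gene alone, without limma's sharing of spread between genes, ended this call (adjusted p = 0.0782). The authors' deposited table gives -0.56 (adjusted p = 4.92e-06).

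Ltc4s, whose product joins glutathione to leukotriene A4 to start the cysteinyl leukotrienes (chromosome 11, 50236461 to 50238616), lay near the bottom of the tested range. It had 1.13, 1.16 and 1.15 in Prmt6-/- cells and 1.22, 1.13 and 1.13 in WT cells, so that the groups overlapped. The difference was -0.01 (95% interval -0.07 to 0.04, limma adjusted p = 0.706). That interval holds for a scale that is strongly compressed at this level: the authors' deposited table gives -0.87 for the log2 fold change (adjusted p = 1). Neither a change nor its absence can be read from this gene at this level.

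Ptgs1, cyclooxygenase 1, which makes prostaglandin H2 from arachidonate (chromosome 2, 36230426 to 36252272), stood at 10.65, 10.44 and 10.41 in Prmt6-/- libraries, against 10.03, 10.09 and 9.90 in WT libraries. All knockout values lay above all WT values, a difference of 0.49 (SE 0.08, limma adjusted p = 0.00167) or 140% of the WT level. The authors' deposited table gives 0.58 (adjusted p = 6.42e-07).

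Ptgs2, the inducible cyclooxygenase 2 (chromosome 1, 150100031 to 150108227), had 5.39, 5.52 and 5.63 in Prmt6-/- cells, against 5.39, 5.19 and 5.38 in WT cells. The groups did not overlap, but knockout library 1 and WT library 1 gave the same value to 2 decimals. It differed by 0.20 (95% interval 0.01 to 0.38) and missed the threshold (limma adjusted p = 0.0928). The authors' deposited table gives 0.83 for its log2 fold change (adjusted p = 0.13).

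Ptges encodes microsomal prostaglandin E synthase 1, which converts prostaglandin H2 to prostaglandin E2 (chromosome 2, 30889471 to 30929863). Its values were 8.29, 8.48 and 8.47 in Prmt6-/- libraries, against 9.76, 9.67 and 9.38 in WT libraries. All knockout values lay below all WT values, and 43.8% of the WT level remained. The difference of -1.19 (SE 0.10, limma adjusted p = 5.98e-05) was the largest of the 10 genes in size, though its 95% interval of -1.42 to -0.96 overlaps that of Alox5ap, -1.35 to -0.78. The authors' deposited table gives a log2 fold change of -1.58 (adjusted p = 1.84e-24), or 33.4% of the WT level.

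Hpgds, the haematopoietic prostaglandin D synthase known from mast cells (chromosome 6, 65117293 to 65144908), had 4.85, 4.84 and 4.86 in Prmt6-/- cells, against 4.85, 4.93 and 4.92 in WT cells. The difference was -0.05 (95% interval -0.16 to 0.05, limma adjusted p = 0.432), and the authors' deposited table gives -0.31 (adjusted p = 0.642).

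Pla2g4a, the cytosolic phospholipase A2 that frees arachidonate for both branches (chromosome 1, 149829618 to 149961290), had 8.58, 8.67 and 8.64 in Prmt6-/- libraries, against 8.47, 8.37 and 8.62 in WT libraries. WT library 3 reached into the knockout range. Pla2g4a differed by 0.14 (95% interval -0.03 to 0.32), which missed the threshold (limma adjusted p = 0.187). Its log2 fold change in the authors' deposited table was 0.20 (adjusted p = 0.307). The gene lies 139 kb from Ptgs2 on the opposite strand.

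Pla2g7, the secreted hydrolase of platelet-activating factor (chromosome 17, 43568098 to 43612201), had 3.81, 3.80 and 4.03 in Prmt6-/- cells, against 3.90, 3.94 and 4.02 in WT cells. Library 3 was the highest of both genotypes, and the groups overlapped. The difference was -0.07 (95% interval -0.22 to 0.07, limma adjusted p = 0.423), and -0.15 without Prmt6-/- library 3 (limma adjusted p = 0.0509). The authors' deposited table gives a log2 fold change of -0.67 (adjusted p = 0.584).

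**Figure D2:**
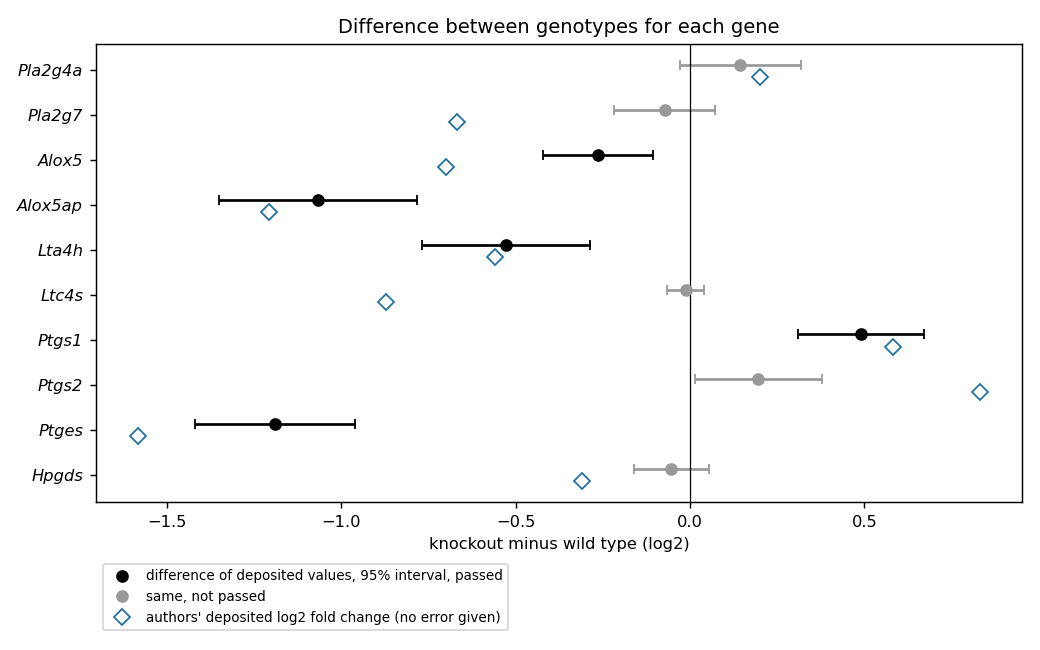
Difference between genotypes on the log2 scale (x axis, Prmt6-/- minus WT) for the 10 genes: circles are differences of the deposited values with limma's 95% interval, black where the gene passed, and open diamonds are the authors' deposited log2 fold changes, which carry no error. Ptges at -1.19 and Alox5ap at -1.07 lie farthest from 0, and for genes of low level such as Ltc4s the diamond lies far outside the interval.

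Exons of Alox5ap, Ltc4s, Ptgs1 and Pla2g7 overlap those of a gene on the other strand in the GENCODE M21 annotation. The protocol does not state a strand-specific count, so reads of such overlaps cannot be told apart. Changes in a bulk sample can come from fewer cells of a type or from less RNA per cell, and these cannot be told apart either.

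Several cell types of the marrow make these lipids, and their marker genes were measured in the same libraries and summed on the linear scale. The mast cell and basophil list had a lower summed level in Prmt6-/- libraries, from 817 to 873, against 1388 to 1945 in WT libraries. Of its 10 markers 4 were tested. Hdc, the histidine decarboxylase, fell by 1.60 and the carboxypeptidase Cpa3 by 0.60 on the log2 scale, the receptor subunit Ms4a2, named after its value was seen, rose by 0.17, and the basophil protease Mcpt8 differed by -0.12 and did not pass. The mast cell proteases Cma1, Tpsb2 and Mcpt4 were listed at 0 in every library. Fcer1a and Tpsab1 averaged -1.49 in both genotypes and Prss34 averaged 0.18 in Prmt6-/- and 0.17 in WT cells, below the test minimum. Cpa3, Hdc and Mcpt8 made up most of the summed level. Monocyte and macrophage markers summed to 25563 to 27116 in Prmt6-/- libraries, against 26883 to 30077 in WT libraries, a sum made up mostly of Ly6c2, which differed by 0.02 and did not pass. Of 8 tested 3 fell and 1 rose, so the list moved in both directions. Csf1r, the receptor of macrophage colony-stimulating factor, fell by 1.83, Cd68 by 0.94 and Irf8 by 0.70. Ccr2, a receptor that draws monocytes out of the marrow, rose by 1.07. Neutrophil markers summed to 1703 to 3326 in Prmt6-/- libraries and 1639 to 1897 in WT libraries, and of 10 tested 2 rose and 1 fell; the chemokine receptor Cxcr2 rose by 1.18 and the granule peptide Camp by 0.97, the collagenase Mmp8 fell by 0.53, and Ngp (0.14) and S100a8 (-0.14) did not pass. Eosinophil markers summed to 356 to 562 in Prmt6-/- libraries and 606 to 771 in WT libraries, a sum led by Prg2, Siglecf and Prg3. Of 5 tested Siglecf fell by 1.40 and Ccr3 rose by 0.09, with Il5ra at 0 throughout. The granule protein genes Prg2 and Prg3 differed by -0.20 and -0.01 and did not pass (limma adjusted p = 0.545 and 0.964). Platelet and megakaryocyte markers, whose cells are rich in Ptgs1, summed to 107 to 110 in Prmt6-/- libraries and 107 to 112 in WT libraries, with Treml1 at 0 throughout and Pf4 and Ppbp near 0.2; of 4 tested 0 passed limma, 0 had an unadjusted p under 0.05 and 0 passed in the authors' deposited table. B cell markers summed to 336 to 432 in Prmt6-/- libraries and 761 to 838 in WT libraries, where Cd79b fell by 1.15 and was the 1 call of 4 tested. T and NK cell markers summed to 553 to 1478 in Prmt6-/- libraries and 1454 to 2721 in WT libraries. Nkg7 made up most of each sum. Of 4 tested Nkg7 fell by 1.36 and Cd3d rose by 0.44. The groups overlapped for Nkg7, with 10.48 in Prmt6-/- library 3 and 10.46 in WT library 2. Nkg7 did not pass in the authors' deposited table (log2 fold change -1.43, adjusted p = 0.0941). Erythroid markers summed to 59.3 to 62.8 in Prmt6-/- libraries and 58.1 to 58.5 in WT libraries, with Klf1 the 1 gene of 6 tested that rose (0.22). Ly6a and Il7r, which the usual progenitor gate leaves out, summed to 19.9 to 23.3 in Prmt6-/- libraries and 19.9 to 22.8 in WT libraries. Weakly expressed markers are compressed on the deposited scale. In the authors' deposited table Ms4a2 rose by 1.88, Ccr3 by 2.88, Cd3d by 2.01 and Klf1 by 1.76 on the log2 scale. Mmp8 fell by 1.54 there and did not pass (adjusted p = 0.204). The part of any of these cell types in the changes of the 10 genes was not tested.

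**Figure D3:**
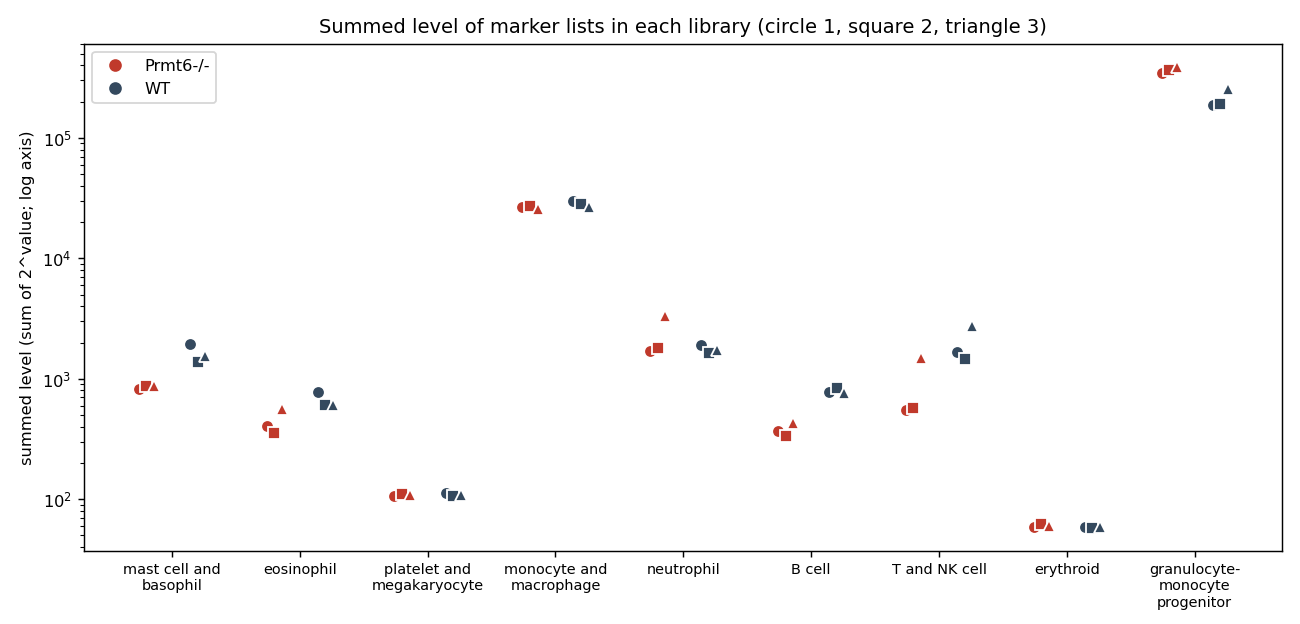
Summed level of each marker list (y axis, sum of 2 to the power of the deposited value, log axis) in Prmt6-/- libraries (red, left of each pair) and WT libraries (dark blue, right); circle, square and triangle are libraries 1, 2 and 3. Mast cell and basophil markers lie at 817 to 873 in Prmt6-/- and 1388 to 1945 in WT libraries, and platelet and megakaryocyte markers lie at 107 to 110 in Prmt6-/- and 107 to 112 in WT libraries.

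Around these 10 genes, 83 further genes of eicosanoid metabolism in 10 lists were examined, of which 70 were tested. In Prmt6-/- cells 10 rose and 18 fell, a share of 40% against 33.0% of all tested genes, and their median difference was -0.002. A linear model for each gene alone ended 11 of these 28 calls, among them those of Dagla, Tbxas1, Fam213b, Hpgd and Mapkapk2, with adjusted p-values of 0.0518 to 0.157 over the 11. Upstream of both branches, of 17 tested phospholipases and lipases that can release arachidonate 3 rose and 1 fell. Mgll, the lipase that splits 2-arachidonoylglycerol, averaged 9.32 ± 0.17 in Prmt6-/- cells and 8.49 ± 0.08 in WT cells (SD, n = 3 each), a difference of 0.83 (limma adjusted p = 0.000207). The diacylglycerol lipases Daglb and Dagla, which make 2-arachidonoylglycerol, rose by 0.65 and 0.51. Pla2g15, a lysosomal phospholipase, fell by 1.05 (8.78 ± 0.22 in Prmt6-/- cells and 9.83 ± 0.11 in WT cells, limma adjusted p = 0.000147).

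Genes that return arachidonate to phospholipids or make platelet-activating factor fell in 3 of 5 tested cases and rose in 1. Lpcat2, the acyltransferase that makes platelet-activating factor in stimulated leukocytes, averaged 6.55 ± 0.54 in Prmt6-/- cells and 8.94 ± 0.19 in WT cells (SD, n = 3 each), a difference of -2.39 (SE 0.23, limma adjusted p = 0.000105). Mboat7, which puts arachidonate into phosphatidylinositol, fell by 0.63 and Lpcat3, which puts it into phosphatidylcholine, by 0.29. Lpcat1 rose by 0.25, a call that ended when any 1 of 5 libraries was left out, the exception being Prmt6-/- library 3 (limma adjusted p of 0.0542 to 0.105 without the others). Of the 5 tested hydrolases and the receptor of platelet-activating factor 2 fell: the receptor Ptafr by 0.64 and the hydrolase subunit Pafah1b2 by 0.18. The Ptafr call ended without WT library 2 (limma adjusted p = 0.0517). That of Pafah1b2 ended without Prmt6-/- library 1 or 3 or WT library 2 or 3 (limma adjusted p of 0.0574 to 0.0646), and after quantile normalization (difference -0.08, limma adjusted p = 0.205) or intensity-dependent centring (difference -0.12, limma adjusted p = 0.0648).

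Leukotriene conversion, export and breakdown genes moved in both directions, with 4 higher and 2 lower of 9 tested. Mgst2, a microsomal glutathione transferase that can make leukotriene C4, averaged 8.24 ± 0.08 in Prmt6-/- cells and 7.37 ± 0.13 in WT cells (SD, n = 3 each), and rose by 0.86 (limma adjusted p = 9.81e-05). Dpep2, a dipeptidase that turns leukotriene D4 into E4, rose by 0.90 and Ptgr1, a reductase that inactivates leukotriene B4 and prostaglandins, by 0.73. Abcc1, the exporter of leukotriene C4, fell by 0.55. Outside the naming rule, and named after their values were seen, Cyp4f18, which oxidizes leukotriene B4 in mouse neutrophils, fell by 0.59 and Dpep3 rose by 0.14. Dpep3 had a log2 fold change of 1.77 in the authors' deposited table (adjusted p = 0.0283). Its limma call ended without Prmt6-/- library 1 or WT library 2 (limma adjusted p of 0.0536 and 0.0546).

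Of 6 other lipoxygenase genes 4 were tested and 0 passed limma after adjustment, 1 had an unadjusted p under 0.05 and 0 passed in the authors' deposited table. The 1 gene was Alox8, named after its value was seen, with a difference of 0.07 (limma adjusted p = 0.0938), and it passed in a linear model for each gene alone (adjusted p = 0.0449). Alox12b was listed at 0 throughout. Among leukotriene and lipoxin receptors 2 of 5 tested fell, both of low level: Cysltr1, a cysteinyl leukotriene receptor, by 0.14 and Fpr2, a lipoxin A4 receptor, by 0.07. Their log2 fold changes in the authors' deposited table were -1.60 for Cysltr1 (adjusted p = 0.0423) and -2.58 for Fpr2 (adjusted p = 0.114). Both limma calls were fragile. That of Cysltr1 ended without any 1 library but WT library 3 (limma adjusted p of 0.0513 to 0.0976) and when genes of low value were kept in the test (0.0522). That of Fpr2 ended without Prmt6-/- library 1 or 2 or WT library 1 or 3 (0.0702 to 0.116), when genes of low value were kept in the test (0.0835) and in limma without trend (0.165). Ltb4r1, the main leukotriene B4 receptor, differed by -0.18 and did not pass (limma adjusted p = 0.201).

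On the prostanoid side, 2 of 7 tested synthases and reductases fell and 1 rose. Tbxas1, thromboxane synthase, averaged 7.29 ± 0.21 in Prmt6-/- cells and 8.17 ± 0.29 in WT cells (SD, n = 3 each), a difference of -0.88 (limma adjusted p = 0.0021). Fam213b, a prostamide and prostaglandin F synthase, fell by 0.52, or by 1.63 on the log2 scale of the authors' deposited table. Ptges3, a co-chaperone that also has prostaglandin E synthase activity, rose by 0.23, a call that ended without Prmt6-/- library 2 or 3 or WT library 1 or 2 (limma adjusted p of 0.055 to 0.116) and in limma without trend (0.0688). Of 4 tested transport and breakdown genes 2 fell. Hpgd, the dehydrogenase that inactivates prostaglandin E2, averaged 12.92 ± 0.25 in Prmt6-/- cells and 13.53 ± 0.13 in WT cells, a difference of -0.62 (limma adjusted p = 0.0034), and the exporter Abcc4 fell by 0.44. Among 7 tested prostanoid receptors 1 passed: Ptgfr, the prostaglandin F receptor, rose by 0.26, or by 2.30 on the log2 scale of the authors' deposited table.

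Regulators of the pathway fell in 4 of 7 tested cases. The kinase Mapkapk2, which stabilizes transcripts such as that of Ptgs2, fell by 0.85 and Zfp36, which speeds their decay, by 0.53. Cotl1, a partner of 5-lipoxygenase, fell by 0.39 and Anxa1, an inhibitor of phospholipase A2 signalling, by 0.16. The Cotl1 call ended without Prmt6-/- library 2 or 3 or WT library 1 or 2 (limma adjusted p of 0.0543 to 0.0943), after quantile normalization (0.0668) and in limma without trend (0.0563). The Anxa1 call ended without Prmt6-/- library 1 or 2 or WT library 2 or 3 (0.0509 to 0.0928), after quantile normalization (difference -0.06, limma adjusted p = 0.342) and after intensity-dependent centring (difference -0.10, limma adjusted p = 0.135).

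**Figure D4:**
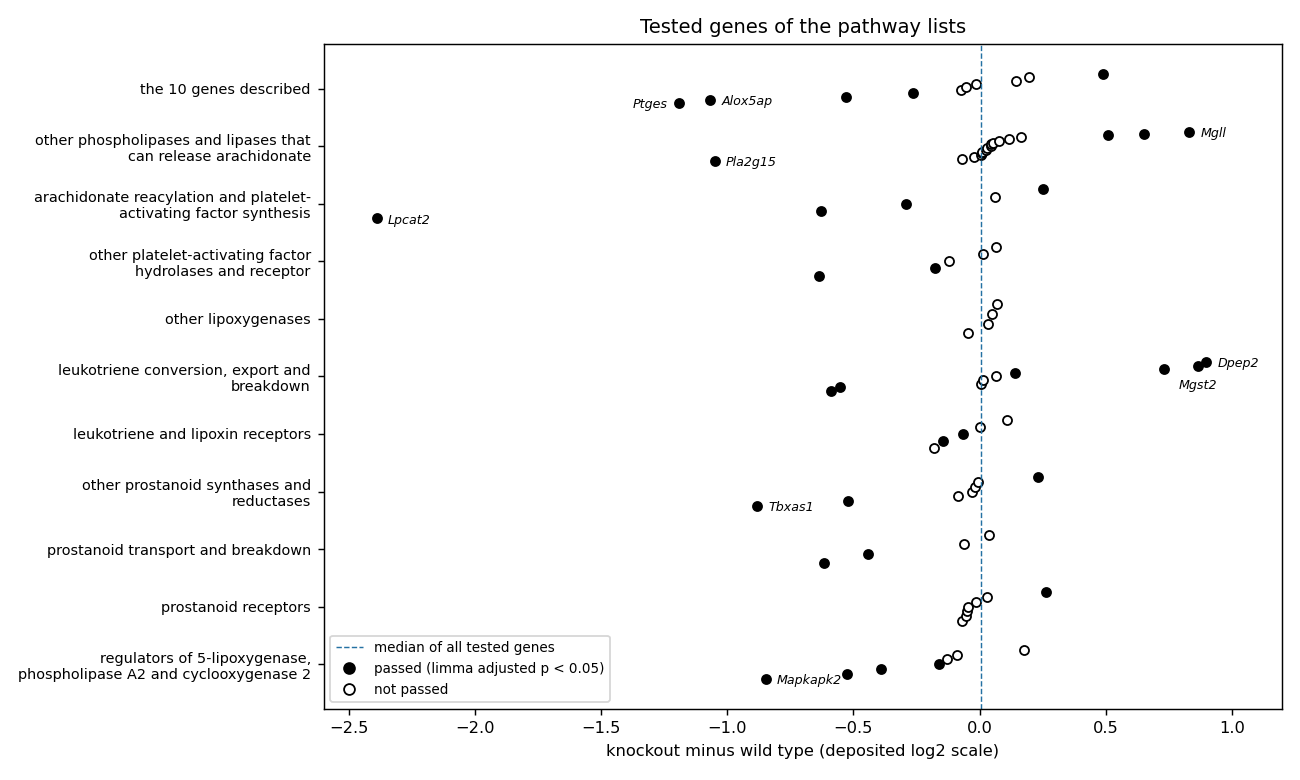
Difference between genotypes (x axis, Prmt6-/- minus WT, deposited log2 scale) of every tested gene in the 11 groups listed on the y axis, filled where the gene passed and open where it did not; the dashed line is the median of all tested genes at 0.01. Lpcat2 at -2.39 lies farthest to the left and Dpep2 at 0.90 farthest to the right.

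The genes whose pattern over the 6 libraries lay nearest to that of Ptges, by the root mean square distance of values centred on each gene's own mean, were Cd33, Pik3r6 and Cxcl2. Cd33, a myeloid surface receptor, had 10.41, 10.67 and 10.61 in Prmt6-/- libraries, against 11.78, 11.71 and 11.48 in WT libraries, a distance of 0.06. Pik3r6, a regulatory subunit of phosphoinositide 3-kinase gamma, and Cxcl2, a neutrophil-attracting chemokine, lay at a distance of 0.07 each. These are the smallest of all tested genes outside the 10 and are given as a description.

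Over 14 alternative settings Ptges, Alox5ap and Ptgs1 passed in all 14, Lta4h in 13 and Alox5 in 11. Ltc4s, Ptgs2, Hpgds, Pla2g4a and Pla2g7 passed in none of the alternatives in which they could be fitted.

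**Figure D5:**
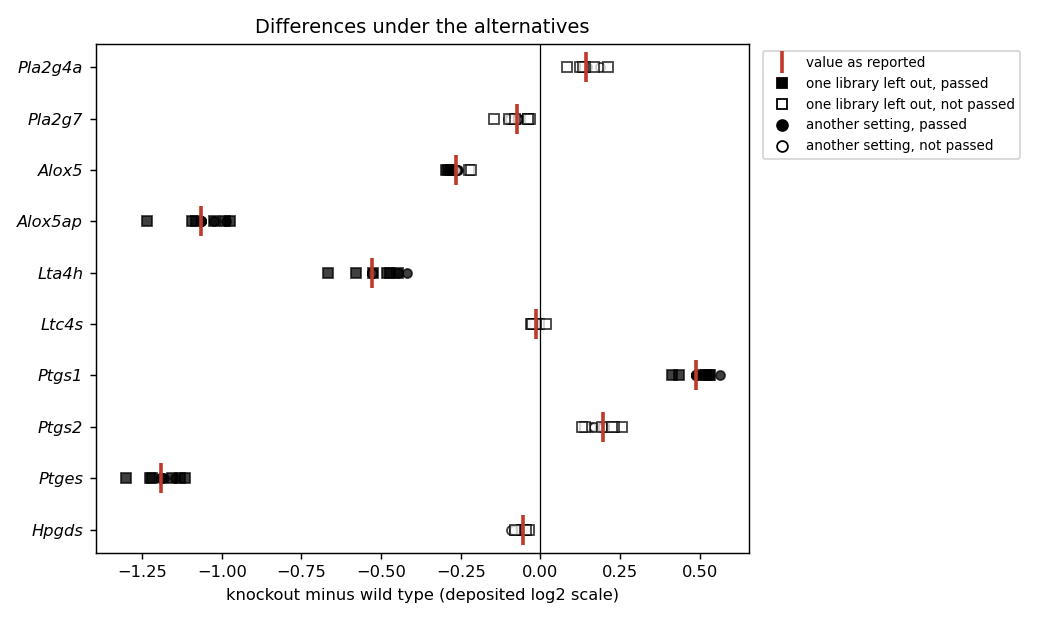
Difference between genotypes (x axis, Prmt6-/- minus WT, deposited log2 scale) of the 10 genes under each alternative, with squares for fits that leave out 1 library, circles for other settings, filled where the gene passed, and a red bar at the value reported. Alox5ap ranged from -1.23 to -0.97 and Ptges from -1.30 to -1.11.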

How the data were processed

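Poly(A) RNA-seq libraries of sorted L-GMP cells were random-primed, per the labels' protocols. Trim Galore, kallisto, HOMER and the build GRCm38 are listed without versions or roles in the submitters' processing notes. Per the file headers, the authors made the table with HOMER's differential expression command from read counts. The authors deposited log2 expression values, normalized between libraries by a transformation that is not named, and beside them, for each gene, its log2 fold change and the p-value of their own test, raw and adjusted. That fold change runs Prmt6-/- over WT, since its sign matched in 1404 of 1404 tested genes that differed by over 0.5.

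1 row that names no gene was left out, and 7932 genes at 0 in every library were not tested. The test took genes that reached 1 in 3 or more libraries and used limma 3.58.1 (R 4.3.3; moderated, with trend, two-sided, Benjamini-Hochberg adjusted over 15454 genes), and the procedure was tested on simulated data. A pseudocount of 1 was foreseen for linear values and served only as an alternative. No label ties libraries to separate animals; the p-values then reflect only sample-to-sample spread, possibly technical. Positions come from GENCODE M21 and promoters from RefSeq, GRCm38.p6. Protein sequences were not used here, so the planned comparison of proteins was not made. Genes named were Prmt6, the 10 genes, up to 4 called genes of smallest p per list, up to 3 genes of highest mean per marker list and the 3 nearest to the called gene of largest difference; other genes were named after their values were seen, as the text says or as listed here: Ltb4r1, the gate genes Kit, Cd34, Fcgr3 and Fcgr2b, the markers Csf1r, Ccr2, Cxcr2, Mmp8 and Ccr3, and the markers at or near 0 (Cma1, Tpsb2, Mcpt4, Il5ra, Treml1, Pf4 and Ppbp). The low markers Fcer1a, Tpsab1, Prss34 and Cd3e were also named after their values were seen. The 10 genes and all lists were chosen with earlier results of these data known.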

Additional observations from a re-analysis of the deposited data

How the results depend on the processing

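The alternatives were the filter on low values, the normalization, a pseudocount, the variance model and leaving out each library. With a linear model for each gene alone 3 of the 10 genes passed, 2 of them lower, since Alox5 (-0.26, adjusted p = 0.0545 in that model fitted across all genes) and Lta4h (-0.53, 0.0782) were lost, and of the further pathway genes 18 passed, 10 of them lower, against 28 and 18 in limma. Of the further pathway calls 11 were lost there, with an adjusted p of 0.0518 to 0.157, and 1 was gained, that of Alox8 (0.07, adjusted p = 0.0449). Over the fits that leave out 1 library the difference of Alox5 ranged from -0.30 to -0.22 and that of Ltc4s from -0.028 to 0.017; without WT library 1 Ltc4s turned to 0.017, and the cause was not tested. Genes called over the whole table numbered 3578 to 5206 across the alternatives. A fit with the replicate number as a block called 5074 genes, 5 of the 10 genes and 27 further pathway genes. Same-numbered libraries correlated in their deviations by 0.09, 0.07 and 0.17, and each library correlated best with its own number. No label pairs the libraries by number, and whether the numbers pair them was not tested. The block ended the call of Cysltr1 (difference -0.14, limma adjusted p = 0.0502). Genes of low level limit these comparisons, since the deposited scale compresses them.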
